A study of Mus musculus with 12 samples.

Results

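The genes described here are the 10 through which a cell receives a hedgehog signal and passes it to its nucleus: the receptor Ptch1, the decoy receptor Hhip, the signal transducer Smo, the co-receptors Boc, Cdon and Gas1, the inhibitor Sufu, and the transcription factors Gli1, Gli2 and Gli3. They were picked by name and role, with earlier results of these data known. All 10 had exactly 1 probe set that names a single gene, among 19938 genes with such a probe set. All 10 also passed the filter on dim genes, which kept 14195 genes for testing. The set is thus wider than receptors, co-receptors and GLI factors, since Smo is a transducer and Sufu and Hhip are inhibitors.

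In the hedgehog pathway, Ptch1 holds the membrane protein Smo inactive until a hedgehog ligand binds Ptch1, with Boc, Cdon and Gas1 helping the ligand to bind. Active Smo then frees the GLI proteins from Sufu, so that Gli2 and Gli3 switch from repressing to activating target genes. Ptch1, Hhip and Gli1 are themselves well-known targets, so the pathway raises its own inhibitors. In the developing forebrain, sonic hedgehog patterns the ventral part and acts on progenitors, while Gli3, mainly as a repressor, is needed to form the dorsal part.

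RNA was measured on 12 Affymetrix arrays from the forebrains of mice at postnatal day 0, with 3 biological replicates of each of 4 genotypes. GBS tumors were hGFAP-cre::Ctnnb1(ex3)Fl/+SmoM2Fl/+, GS forebrains were hGFAP-cre::SmoM2Fl/+, GB forebrains were hGFAP-cre::Ctnnb1(ex3)Fl/+, and Control forebrains were Ctnnb1(ex3)Fl/+SmoM2Fl/+ with no Cre. SmoM2 is a form of Smo that signals without ligand, and Ctnnb1 without exon 3 encodes a stabilised beta-catenin, which drives WNT target genes. The series modelled a childhood brain tumor, the embryonal tumor with multilayered rosettes, and asked about inhibitors of the hedgehog pathway.

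Several features limit these groups as models. The human GFAP promoter drives Cre in radial glia, from which forebrain neurons and glia arise, so the dissected tissue also holds cells that never had Cre. Every floxed allele was heterozygous. Only Control lacked Cre, so an effect of Cre itself cannot be told apart from that of the alleles in any comparison with Control. The labels do not say whether tissue was pooled, and p-values measure the spread between these replicates. Of 10 tested forebrain markers, 3 were called higher and 3 lower in GBS against Control, beside 11% and 4.35% of all genes. Emx1, a cortical transcription factor that was not called, averaged 8.04 to 8.28 over the groups, above the filter in each. Of 9 midbrain and hindbrain markers 3 (Hoxa2, Hoxb4 and En2) were below it, 6 passed, and Pax2 and Barhl1 averaged 7.02 to 7.37 and 6.93 to 7.31 over the groups. Xist, which female cells transcribe from their silenced X, read 8.66 to 10.83 in GS replicates 2 and 3 and GB replicates 2 and 3, against 5.02 or less elsewhere (log2), so the groups differed in sex. The arrays GS replicate 3, GB replicate 2 and Control replicate 3 deviated from their groups in a shared way, and member calls that change without them are given both ways. They were picked from these same data, and none is a GBS array. In them 9, 7 and 6 of 10 members read highest of their group, so leaving them out lowers those members' means in the groups set against GBS. Calls gained that way show only dependence on the setting. Leaving these 3 arrays out also raised the share of all genes called higher, to 23.5% in GBS against Control, 9.86% in GS against Control and 0.176% in GB against Control.

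All values below are RMA intensities on the log2 scale, where a difference of 1 is a doubling of signal. Levels are compared only within a gene, since probe sets differ in how brightly they bind. In whole tissue, fewer cells that express a gene and less RNA per cell cannot be told apart.

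The 3 members that rose in GBS tumors against each of the other genotypes were Ptch1, Gli3 and Gli2. The 250 bases before their annotated start sites are shown because the results turn on these genes. They come from RefSeq on assembly GRCm38.p6, are written 5′ to 3′ on the gene's strand, and have every CpG in capitals. Ptch1 lies at chr13:63565736-63565985 on the minus strand, Gli3 at chr13:15463473-15463722 on the plus strand and Gli2 at chr1:119053620-119053869 on the minus strand.

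Ptch1: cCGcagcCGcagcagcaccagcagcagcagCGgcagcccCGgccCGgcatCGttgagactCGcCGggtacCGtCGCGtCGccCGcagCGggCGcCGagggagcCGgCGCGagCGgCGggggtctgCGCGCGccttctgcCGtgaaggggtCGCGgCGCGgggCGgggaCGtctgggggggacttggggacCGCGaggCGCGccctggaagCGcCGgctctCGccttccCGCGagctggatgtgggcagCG

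Gli3: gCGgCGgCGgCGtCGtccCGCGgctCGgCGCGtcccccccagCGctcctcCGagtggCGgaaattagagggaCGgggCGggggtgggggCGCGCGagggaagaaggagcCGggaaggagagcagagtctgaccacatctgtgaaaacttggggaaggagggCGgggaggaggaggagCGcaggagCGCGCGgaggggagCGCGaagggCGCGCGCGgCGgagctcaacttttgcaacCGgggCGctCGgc

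Gli2: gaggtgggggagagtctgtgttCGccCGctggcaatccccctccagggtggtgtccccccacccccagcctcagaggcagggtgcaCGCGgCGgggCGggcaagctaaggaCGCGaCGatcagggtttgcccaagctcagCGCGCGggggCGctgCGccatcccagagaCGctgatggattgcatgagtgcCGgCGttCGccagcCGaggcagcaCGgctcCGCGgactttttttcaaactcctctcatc

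These stretches held 41 CpG for Ptch1, 34 for Gli3 and 22 for Gli2. RefSeq windows of 300 bases, which also include the first bases of the transcript, were at hand for 8 of the 10 members, all but Gli1 and Boc. Such windows held 47 CpG for Ptch1, 39 for Gli3, 30 for Hhip and 28 for Gli2, against a median of 7 over all 32851 windows. Smo and Gas1 held 17 each, Sufu held 12, and Cdon, with 3, was below that median. The letters GACCACCCA, the GLI binding motif, were searched on both strands and stood in 0.253% of all windows. The looser form GACCNCCCA, which contains it, stood in 0.977%, and ATCAAAG, the motif of the TCF and LEF factors that act with beta-catenin, in 3.73%. None of the 3 motifs stood in any of the 8 members' windows, which says only that these letters are not in these stretches.

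The comparison of GBS tumors with Control asks what both alleles together did to the hedgehog genes. Ptch1, Gli3, Gli2 and Hhip rose in the tumors, by 5.22-fold, 1.69-fold, 1.29-fold and 1.34-fold, and no member fell. The other 6 did not pass the test, among them Gli1 and Smo. These 4 of 10 members stand beside 11% of all tested genes called higher in this comparison. Hhip passed the filter on dim genes only through arrays in which it was high, so nothing is read from its place in this count or in the counts below. At an unadjusted p under 0.05, 7 members were higher and 0 lower, and 38.8% of all genes passed in either direction. The members' median log2 change was 0.32, against -0.10 over all genes tested, and the arrays of 8 members lay wholly above those of Control, as did those of 28.8% of all genes.

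Ptch1, both the receptor and a target of the pathway, read 9.40, 9.74 and 9.38 in GBS tumors, 8.57, 8.62 and 8.46 in GS, 6.96, 7.12 and 7.28 in GB, and 7.17, 7.11 and 7.08 in Control. The tumors were highest, GS lay between, and GB and Control overlapped. Its mean was 9.50 ± 0.207 in GBS and 7.12 ± 0.0411 in Control (SD, n = 3 each), a log2 difference of 2.38 ± 0.118 (SE, adjusted p = 3.87e-06, limma). Only 1 of all genes tested had a smaller p in this comparison.

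Hhip, which binds hedgehog ligands at the cell surface and keeps them from Ptch1, read 6.05, 6.39 and 6.25 in GBS, 6.25, 6.11 and 6.31 in GS, 5.81, 6.07 and 5.74 in GB, and 5.72, 5.74 and 5.96 in Control. Both genotypes with SmoM2 lay above Control without overlap, and GBS and GS overlapped each other. The difference between GBS and Control was 0.42 ± 0.122 (SE, adjusted p = 0.0406). Hhip passed the filter on dim genes in only 3 arrays, GBS replicates 2 and 3 and GS replicate 1, both groups in which it was high. It was above the 95th percentile of the olfactory and vomeronasal receptor genes, which brain barely expresses and which read mostly background here, in 0 of 12 arrays. Leaving out 1 array ended its call in 8 cases, GBS replicates 2 and 3, GS replicates 1 and 2, GB replicate 1 and each Control replicate (the highest adjusted p was 0.172).

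**Figure D1:**
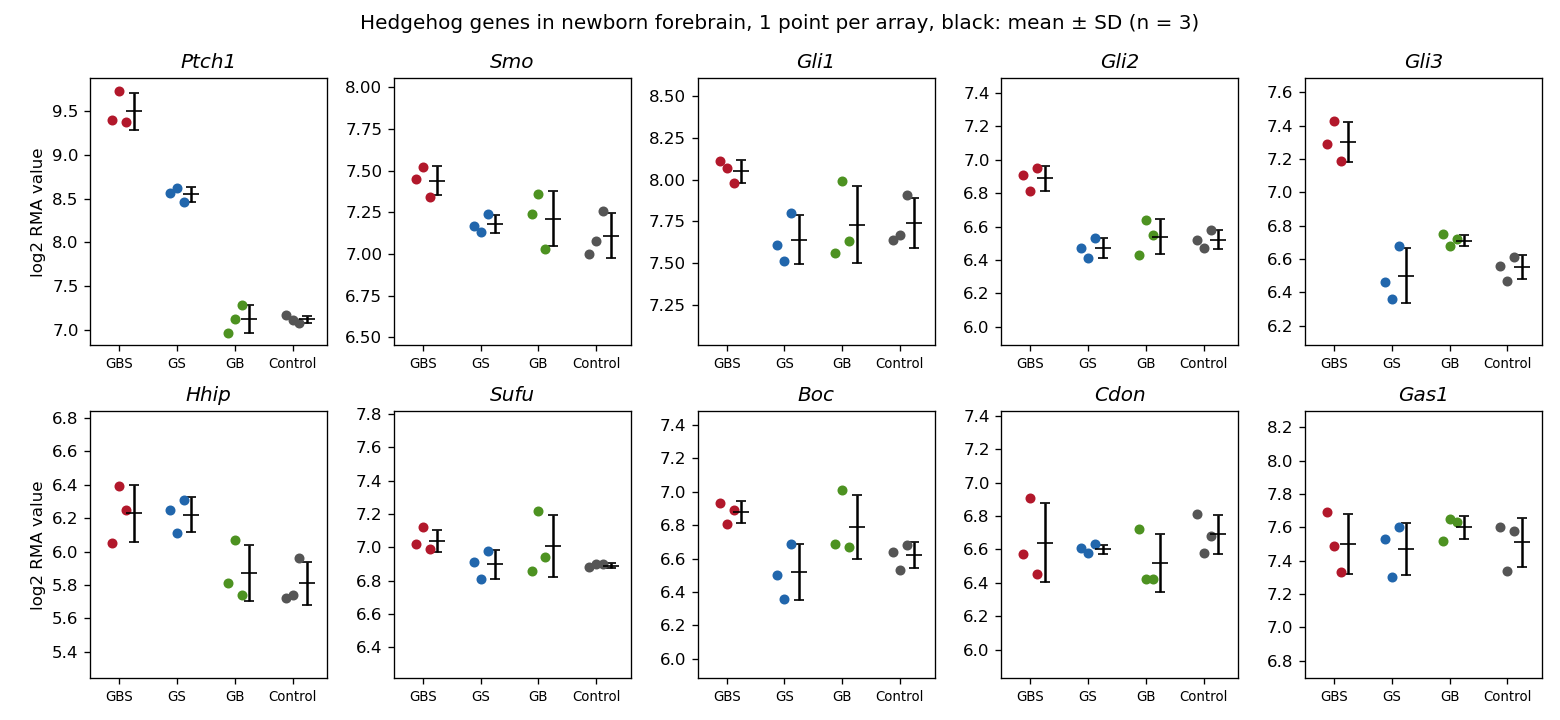
Level of each of the 10 hedgehog genes in every array (log2, vertical axis, with its own range in each panel) by genotype (horizontal axis, GBS, GS, GB and Control), where coloured points are arrays and black marks give the mean ± SD of 3 arrays. Ptch1 stands at 9.38 to 9.74 in GBS and 8.46 to 8.62 in GS, apart from 6.96 to 7.28 in GB and 7.08 to 7.17 in Control, while Gli3 and Gli2 are set apart in GBS only.

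Smo, the transducer, read 7.45, 7.52 and 7.34 in GBS tumors, 7.17, 7.13 and 7.24 in GS, 7.24, 7.36 and 7.03 in GB, and 7.0, 7.08 and 7.26 in Control. The GBS arrays lay above all Control and GS arrays but overlapped GB. The difference from Control was 0.32 ± 0.106 (SE) with an adjusted p of 0.0615. Without the 3 arrays that deviated together it was 0.40, with an adjusted p of 0.0071. No source used here says which part of the Smo transcript the probe set reads, so this value does not check the SmoM2 allele.

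Among the co-receptors, Boc read 6.93, 6.81 and 6.89 in GBS, 6.50, 6.36 and 6.69 in GS, 6.69, 7.01 and 6.67 in GB, and 6.64, 6.53 and 6.68 in Control. Its highest array was GB replicate 2, and GBS lay above Control and GS without overlap. The difference of GBS from Control was 0.26 ± 0.116 (SE, adjusted p = 0.128), and 0.29 with an adjusted p of 0.0213 without the 3 deviating arrays. Cdon, a relative of Boc, ranged over 6.45 to 6.91 in GBS, 6.58 to 6.63 in GS, 6.42 to 6.72 in GB and 6.58 to 6.81 in Control, and the difference of GBS from Control was -0.04 with a 95% interval of -0.33 to 0.24. Gas1, a membrane-anchored co-receptor, ranged over 7.33 to 7.69 in GBS, 7.30 to 7.60 in GS, 7.52 to 7.65 in GB and 7.34 to 7.60 in Control, a difference of GBS from Control of 0.00 with a 95% interval of -0.27 to 0.26. The groups overlapped for Cdon and Gas1 in every comparison.

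Sufu, which holds GLI proteins in the cytoplasm, read 7.02, 7.12 and 6.99 in GBS, 6.91, 6.81 and 6.98 in GS, 6.86, 7.22 and 6.94 in GB, and 6.88, 6.90 and 6.90 in Control. GBS lay above Control and GS without overlap, within a narrow range, and GB replicate 2 was the highest array of all. The difference from Control was 0.15 ± 0.101 (SE, adjusted p = 0.25).

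Gli3, the GLI factor with the strongest repressor role in the forebrain, read 7.29, 7.43 and 7.19 in GBS tumors, 6.46, 6.36 and 6.68 in GS, 6.75, 6.68 and 6.72 in GB, and 6.56, 6.47 and 6.61 in Control. The tumors stood above every other array, with GS and Control overlapping. The tumor mean was 7.30 ± 0.121 and the Control mean 6.55 ± 0.0724 (SD, n = 3 each), a difference of 0.76 ± 0.102 (SE, adjusted p = 0.00113). Gli2, the main activator of the pathway, read 6.91, 6.81 and 6.95 in GBS, 6.47, 6.41 and 6.53 in GS, 6.43, 6.64 and 6.55 in GB, and 6.52, 6.47 and 6.58 in Control. Again the tumors stood above all other arrays and the other 3 genotypes overlapped. The difference was 0.37 ± 0.0853 (SE, adjusted p = 0.0182), and the call was lost when GBS replicate 3 or either of Control replicates 1 and 2 was left out (highest adjusted p 0.0663).

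Gli1, an activator and a usual readout of the pathway, read 8.11, 8.07 and 7.98 in GBS, 7.61, 7.51 and 7.80 in GS, 7.56, 7.99 and 7.63 in GB, and 7.64, 7.67 and 7.91 in Control. The tumor arrays lay above Control and GS, GB replicate 2 reached into them, and GS and Control overlapped. The difference from Control was 0.32 ± 0.13 (SE, adjusted p = 0.106). Without the 3 deviating arrays it was 0.40 with an adjusted p of 0.00356, and 7 members were then called higher, since Smo and Boc also passed, beside 23.5% of all genes.

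**Figure D2:**
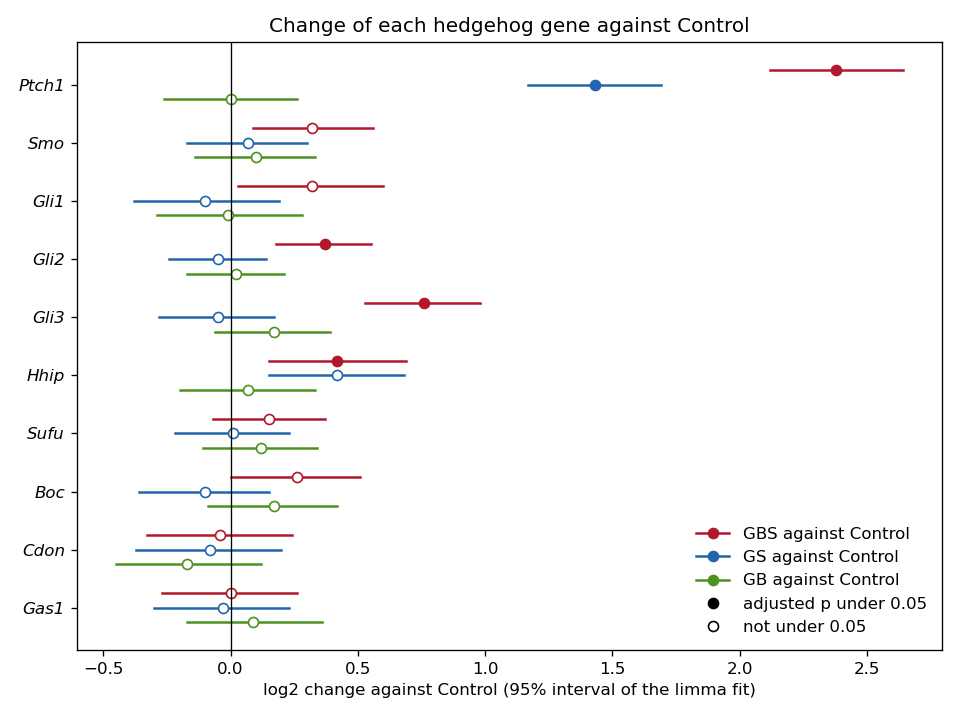
Log2 change of each of the 10 genes (horizontal axis, points with 95% intervals from the limma fit) in GBS, GS and GB, each against Control, with filled points for adjusted p under 0.05 over all genes tested. Ptch1 is filled in GBS (2.38) and GS (1.43) and sits at 0.00 in GB, and Gli3, Gli2 and Hhip are filled in GBS only.

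The comparison of GS with Control asks what SmoM2 did without the beta-catenin allele. Ptch1 rose, to 8.55 ± 0.0835 in GS against 7.12 ± 0.0411 in Control (SD, n = 3 each), a 2.69-fold difference. It was 1 of 10 members called higher, where 0.0211% of all genes tested (3 genes) were. The log2 difference was 1.43 ± 0.118 (SE, adjusted p = 0.00164), the smallest p of all genes tested in this comparison. GS replicate 1, low in Xist, read 8.57 for Ptch1, between GS replicates 2 and 3, high in Xist, at 8.62 and 8.46.

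The GS arrays of Ptch1 all lay above the Control arrays, as did 8.09% of all genes. Hhip was the only other such member, but it passed the filter through GBS and GS arrays, so nothing is read from its place. The Hhip difference of 0.42 ± 0.122 (SE) was close in size to that in the tumors, but its adjusted p over all genes was 0.645 in this comparison, and 0.0336 without the 3 deviating arrays (difference 0.45), when 9.86% of all genes were called higher. The other target gene among the members, Gli1, was at 7.64 ± 0.145 in GS and 7.74 ± 0.15 in Control (SD, n = 3 each), a difference of -0.10 with a 95% interval of -0.38 to 0.19 (adjusted p = 0.72). Gli2 and Gli3 differed by -0.05 each (adjusted p = 0.759 and 0.793). The median change of the members was -0.04, against -0.02 over all genes, and 0 members fell by limma, also at an unadjusted p under 0.05.

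The comparison of GB with Control asks what the beta-catenin allele did alone. No member passed the test, and 0% of all genes tested did. At an unadjusted p under 0.05, 0 of 10 members and 1.1% of all genes were called in limma. By the same measure 5 of 10 WNT feedback genes were higher, though 0 were called. GB replicate 2 differed from GB replicates 1 and 3 by a median absolute log2 difference of 0.346 and 0.367, against 0.088 between those. Its spread enters the fit, so the lack of calls does not show that the allele did nothing. Ptch1 was at 7.12 ± 0.161 in GB and 7.12 ± 0.0411 in Control (SD, n = 3 each), a difference of 0.00 with a 95% interval of -0.26 to 0.26. The members' differences ran from -0.17 for Cdon to 0.17. Gli3 was 1 of 10 members whose GB arrays all lay above Control, as in 3.01% of all genes, at 6.71 ± 0.0347 in GB and 6.55 ± 0.0724 in Control (SD, n = 3 each, difference 0.17, adjusted p = 1). These 3 comparisons share the Control arrays, so their values for a member are not independent.

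Adding the beta-catenin allele to SmoM2 is the comparison of GBS with GS. Ptch1, Gli3 and Gli2 rose, 3 of 10 members where 3.56% of all genes tested were called higher. Ptch1 differed by 0.96 ± 0.118 (SE, 1.94-fold, adjusted p = 0.00119), Gli3 by 0.81 ± 0.102 (SE, 1.75-fold, adjusted p = 0.00135) and Gli2 by 0.42 ± 0.0853 (SE, 1.34-fold, adjusted p = 0.0178). GBS arrays stood above all GS arrays for 7 of 10 members, and for 16.5% of all genes. Gli1 was among these at 0.41 ± 0.13 (SE, adjusted p = 0.103), as was Boc at 0.36 (adjusted p = 0.112). Both were called without the 3 deviating arrays, when 5 members and 8.2% of all genes were. Hhip, in contrast, differed by 0.01 with a 95% interval of -0.26 to 0.28. The Gli2 call ended without GBS replicate 1, GBS replicate 3, GS replicate 1 or GS replicate 2 and with only these groups in the fit (highest adjusted p 0.0889).

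Adding SmoM2 to the beta-catenin allele is the comparison of GBS with GB, in which the members called were again Ptch1, Gli3 and Gli2. These 3 of 10 compare with 9.6% of all genes called higher, and the same 3 were the members without overlap, where 24.2% of all genes had none in this direction. Ptch1 differed by 2.38 ± 0.118 (SE, adjusted p = 7.68e-06), the smallest p of all genes tested. Gli3 differed by 0.59 ± 0.102 (SE, adjusted p = 0.00649) and Gli2 by 0.35 ± 0.0853 (SE, adjusted p = 0.0287). The Gli2 call ended without any 1 of the GBS replicates or GB replicate 1, and both the Gli2 and the Gli3 call ended with only these groups in the fit (adjusted p = 0.159 and 0.0793). Gli1 (0.32, adjusted p = 0.0946) and Hhip (0.36, adjusted p = 0.0688) did not pass, and both overlapped GB. Without the 3 deviating arrays Gli1 and Hhip passed, at 0.46 (adjusted p = 0.00344) and 0.45 (adjusted p = 0.0111), and so did Smo, at 0.30 (adjusted p = 0.0369) against 0.23 with all arrays (adjusted p = 0.128). Then 6 members and 17.1% of all genes were called higher.

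GS against GB sets the single alleles beside each other. Ptch1 was higher in GS by 1.43 ± 0.118 (SE, adjusted p = 0.00162) and was 1 of 10 members called, where 0.00704% of all genes were called higher. With only these groups in the fit its adjusted p was 0.114. Ptch1 and Hhip were the 2 members whose GS arrays lay wholly above GB, as in 4.45% of all genes. Nothing is read from the place of Hhip, which passed the filter through GBS and GS arrays. Ptch1 thus held the order GBS, GS, then GB and Control, which did not differ beyond their spread. For Gli3 the order of means was GBS, GB, Control and GS, and only GBS differed from its neighbour by the test.

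Whether the alleles together gave more than the sum of their single changes was tested as an interaction on the log2 scale, the GBS-GS difference less the GB-Control difference. Ptch1 reached 9.50 in GBS, against 8.55 given by adding the GS and GB changes to Control. The excess was 0.96 ± 0.167 (SE, adjusted p = 0.0424), and Ptch1 was 1 of 10 members called, where 0.324% of all genes were called higher. Gli3 stood at 7.30 against a sum of 6.66, an excess of 0.64 ± 0.144 (SE, adjusted p = 0.141). The excess was 0.42 for Gli1 (adjusted p = 0.591) and 0.40 for Gli2 (adjusted p = 0.322). Without the 3 deviating arrays Gli3 and Gli1 passed as well, at 0.68 (adjusted p = 0.0297) and 0.55 (adjusted p = 0.0427), when 0.845% of all genes were called higher. Hhip stood at 6.23 against a sum of 6.29, a difference of -0.06 with a 95% interval of -0.44 to 0.32. The Ptch1 call rested on single arrays. It was lost without any 1 of the 12 other than GB replicates 2 and 3, and after quantile normalization or centring of the arrays, with adjusted p up to 0.165, while the excess stayed between 0.82 and 1.04. By Xist, GS replicates 2 and 3 and GB replicates 2 and 3 were high, while all GBS and Control arrays were low. Sex thus runs along this interaction and along the comparisons of GBS with GS and with GB. Its part was not tested.

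**Figure D3:**
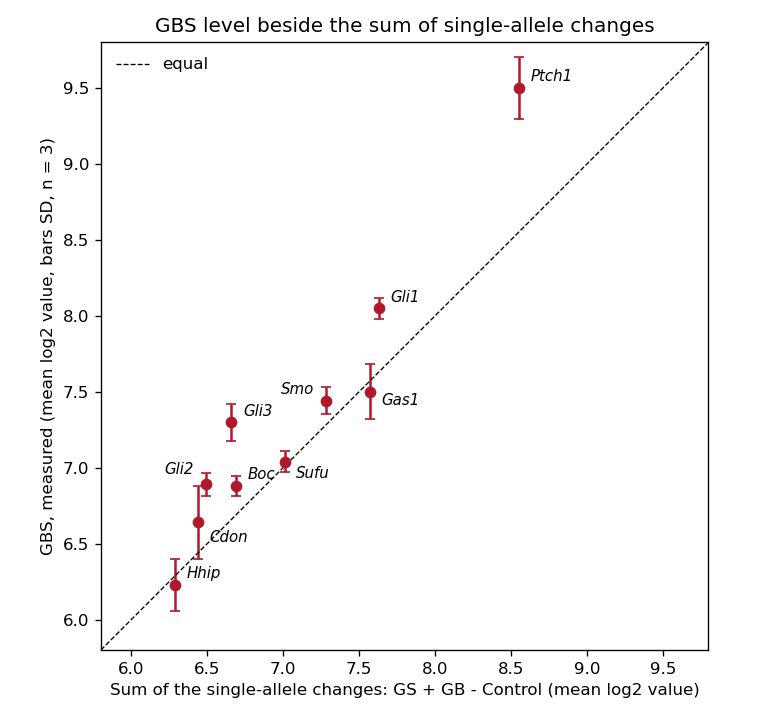
Mean level of each gene in GBS tumors (vertical axis, log2, bars SD of 3 arrays) against the level given by adding the GS and GB changes to Control (horizontal axis, log2), with a dashed line where they are equal. Ptch1 lies farthest above the line (9.50 against 8.55), Gli3, Gli1 and Gli2 lie above it by 0.64, 0.42 and 0.40, and Hhip lies on it (6.23 against 6.29).

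The members also varied together within groups. In GS replicate 3, 9 of 10 members were the highest of their group, in GB replicate 2 it was 7 and in Control replicate 3 it was 6. These arrays also had the highest median level of the receptor genes in their groups, 5.22, 5.35 and 5.22. Over the 12 arrays, deviations from the group mean correlated with that of the receptor genes at r = 0.90 for Boc, 0.83 for Gli1, 0.69 for Sufu and 0.66 for Gli2, but at -0.33 for Ptch1 and -0.16 for Cdon. Deviations of Gli1 and Boc correlated with each other at r = 0.86 and those of Gli1 and Sufu at 0.84. These coefficients are descriptions, and the arrays share the normalization and the background of dim probe sets.

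Between groups the receptor genes moved the other way, with array medians of 4.84 to 4.91 in GBS and 5.11 to 5.22 in Control. These ranges do not overlap, so a covariate of that level is confounded with genotype. Its fit extends the slope within groups across the gap, and calls gained or lost with it show only dependence on the setting. With the receptor-gene level as a covariate, the tumor-Control differences were 0.60 for Gli1 (adjusted p = 0.00594), 0.48 for Smo (adjusted p = 0.02) and 0.52 for Boc (adjusted p = 0.00523), and 7 members and 5.69% of all genes were called higher. Ptch1, in contrast, was above the 95th percentile of the receptor genes in 11 of 12 arrays, Smo, Gli1 and Gas1 in all 12, and Sufu in 9. Gli2, Gli3 and Boc were above it only in the 3 GBS arrays. That percentile is set in each array, at 6.50 to 6.64 in GBS, 6.90 to 7.03 in Control and 7.29 in GB replicate 2. GBS values of Gli2 (6.81 to 6.95) and Boc (6.81 to 6.93) did not all reach the Control cutoffs. For these genes the count thus also reflects the lower cutoff in GBS. Outside GBS all 3 genes lay below the cutoff of their own array, and their folds may be understated.

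**Figure D4:**
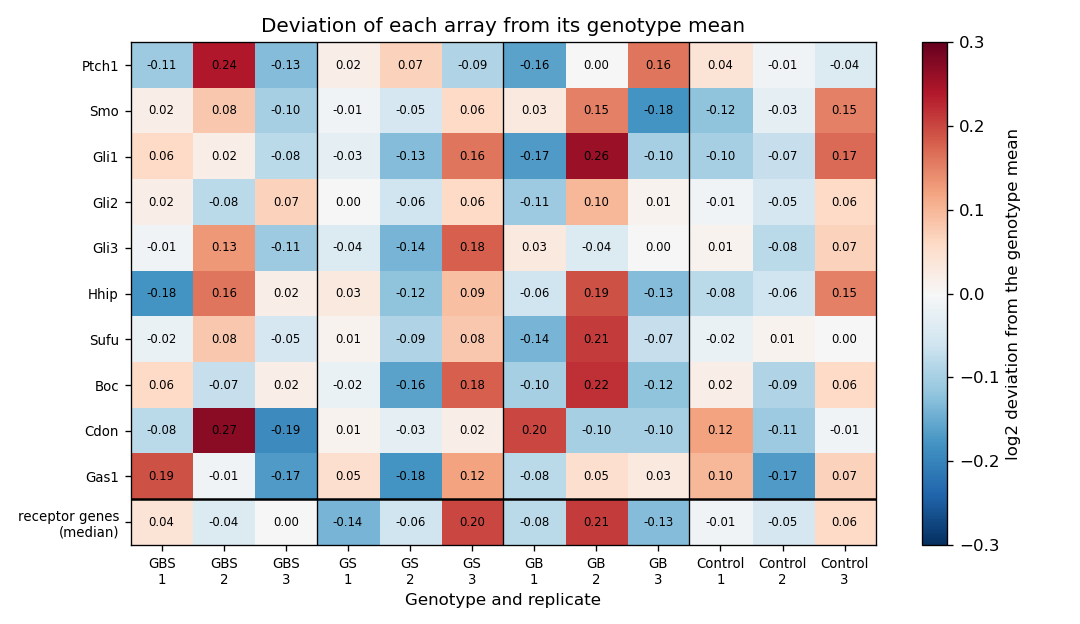
Deviation of each gene (rows) from the mean of its genotype in each of the 12 arrays (columns), on the log2 scale. The columns of GS replicate 3, GB replicate 2 and Control replicate 3 are mostly positive, with 9, 7 and 6 of 10 genes at their group's highest value.

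Other cell types and states moved with the same groups. In GBS against Control, where 11% of all genes were called higher and 4.35% lower, 8 of 11 proliferation genes rose, with a mean level of 8.18 to 8.88 in GBS, 7.29 to 7.60 in GS, 6.74 to 7.15 in GB and 6.87 to 7.04 in Control. Of these, Bub1 read 5.27 to 6.06 in GB and 5.47 to 5.76 in Control, below the filter on dim genes. It passed that filter only through GBS and GS arrays, so nothing is read from its place in this count. Radial glia and progenitor markers (5 of 10 higher, 1 lower) averaged 7.70 to 7.93 in GBS, 7.77 to 7.99 in GS, 7.23 to 7.68 in GB and 7.47 to 7.65 in Control. Markers of postmitotic neurons (0 higher and 2 lower of 12) averaged 8.06 to 8.77 in GBS and 8.85 to 9.15 in Control. Markers of meninges and fibroblasts averaged 7.07 to 7.26 in GBS and 6.68 to 6.84 in Control. Of 6 tested only Dcn, a matrix proteoglycan, was called (3.79, adjusted p = 0.000354), the other tested ones differed by -0.24 to 0.08, and the median was -0.14. Of endothelial markers 0 of 8 and of microglial markers 0 of 6 were called by limma. An unadjusted p under 0.05 gave 2 higher and 2 lower endothelial markers, and 0 higher and 2 lower microglial markers. Of all genes, 38.8% passed this in either direction. The part of these shifts in the members' differences was not tested.

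By Pearson correlation over the 12 arrays, the genes most like Ptch1 were Kif11, a mitotic motor (r = 0.963), Gm10561 (0.96), Slc1a3, a glutamate transporter of radial glia (0.955), Parp1, a DNA repair enzyme (0.955), and Pdia4, a chaperone of the endoplasmic reticulum (0.951). Kif11 averaged 8.83 in GBS, 7.54 in GS, 6.44 in GB and 6.32 in Control, the same order as Ptch1. Among the members the nearest was Hhip (0.803), followed by Gli3 (0.666), Gli2 (0.657) and Smo (0.624), and Gas1 was the only one below 0 (-0.216). The 4 genotypes set most of the spread behind these coefficients, so they describe the pattern over groups.

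Upstream of the receptors, more genes for hedgehog ligands and their release were called lower than higher in the tumors. Of 14 listed genes 13 had a probe set of their own and 11 were tested, of which 1 rose and 3 fell in GBS against Control, where 11% of all genes were called higher and 4.35% lower. The median change was -0.29, against -0.10 over all genes tested. Midbrain and hindbrain markers had the same median of -0.29. The array medians of the olfactory and vomeronasal receptor genes also fell, from 5.11 to 5.22 in Control to 4.84 to 4.91 in GBS. The part of such a general fall of dim probe sets in these changes was not tested. Gpc4, a heparan sulfate proteoglycan of the cell surface, averaged 7.51 ± 0.116 in GBS, 6.14 ± 0.13 in GS, 6.34 ± 0.104 in GB and 6.06 ± 0.113 in Control (SD, n = 3 each), a difference from Control of 1.45 (adjusted p = 2.94e-05). Like Ptch1 it exceeded the sum of the single changes, by 1.09 (adjusted p = 0.0125), a call that ended without GS replicate 2 or Control replicate 1 and after quantile normalization. Outside GBS, Gpc4 was above the 95th percentile of the receptor genes in 0 arrays, so the sum is read from levels within the range of background. Scube1 and Scube3, secreted proteins that help release the ligand, fell by 0.68 and 0.39 (log2, adjusted p = 0.00328 and 0.0175). Disp2, a relative of the ligand exporter Dispatched, fell by 0.53 (adjusted p = 0.0106). The Disp2 call ended without GBS replicate 2, and the Scube3 call without GBS replicate 2 or 3 or Control replicate 1 or 3 and with the receptor-gene covariate. The ligand Shh itself averaged 6.87 ± 0.156 in GBS and 7.16 ± 0.0667 in Control (SD, n = 3 each), with an adjusted p of 0.13.

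Between Smo and the GLI factors, 21 of 24 listed genes of GLI processing and the primary cilium were tested, and 3 rose and 0 fell in GBS against Control, near the 11% of all genes called higher, with a median of 0.23. By limma at an unadjusted p under 0.05, 5 were higher and 1 lower, where 38.8% of all genes passed in either direction. Numb, an endocytic adaptor that promotes Gli1 degradation, differed by 0.72 (adjusted p = 0.00662). Itch, the ubiquitin ligase that works with Numb on Gli1, differed by 1.0 (adjusted p = 0.0305). Spop, an adaptor that directs Gli2 and Gli3 to degradation, differed by 1.06 (adjusted p = 0.0238). The Spop and Itch calls ended with the receptor-gene level as a covariate, at 0.34 (adjusted p = 0.21) and 0.27 (adjusted p = 0.33), and without GBS replicate 2 or 3 or Control replicate 2 or 3, and for Itch also without Control replicate 1 and after quantile normalization.

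Downstream of the GLI factors, 17 of 20 listed response genes other than Ptch1, Gli1 and Hhip were tested, of which 4 rose and 2 fell in GBS against Control, beside 11% and 4.35% of all genes, with a median of -0.06. Those that rose were the cell cycle genes Cdk6 (1.09, adjusted p = 0.00201), Ccnd2 (0.95, adjusted p = 0.00483) and Foxm1 (0.84, adjusted p = 0.0113) and the survival gene Bcl2 (0.49, adjusted p = 0.0152). Olig2, a transcription factor of ventral and oligodendrocyte progenitors, fell by 0.46 (log2, adjusted p = 0.0162) and Foxc2, a forkhead factor, by 0.30 (adjusted p = 0.0216). The calls of Bcl2 and Olig2 were lost with the receptor-gene covariate and without GBS replicate 2 or either of Control replicates 1 and 3. That of Foxc2 was lost with the covariate, after quantile normalization and without any 1 GBS or Control replicate. Foxc2 was above the 95th percentile of the receptor genes in 0 arrays. At 5.96 to 6.02 in GBS and 6.11 to 6.13 in GS, it lay below the filter on dim genes there. It passed only through GB and Control arrays, where it was higher, so nothing is read from its place in this count. Cdk6 averaged 8.15 ± 0.276 in GBS, 7.88 ± 0.17 in GS, 6.99 ± 0.268 in GB and 7.06 ± 0.0439 in Control (SD, n = 3 each), so that both genotypes with SmoM2 were high, as for Ptch1. In GS against Control and in GB against Control, 0 genes of these 3 lists were called by limma, where 0.0211% and 0% of all genes were. At an unadjusted p under 0.05, the response genes then had 2 higher in GS and 1 higher in GB, with 0 lower in both. Of all genes, 5.91% in GS and 1.1% in GB passed this in either direction.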

How the data were processed

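RNA of 12 forebrain samples, 3 for each of 4 genotypes at postnatal day 0, was hybridised to 1 Affymetrix array each. The authors deposited RMA intensities on a log2 scale, and the submitters' processing notes name RMA and Affymetrix Expression Console, where the scale was taken from the range, 2.82 to 13.83. The sources used here name no software version, genome build or probe annotation. RMA corrects background, normalizes arrays together and summarises probes, and it compresses differences of dim probe sets. No counts exist, so the number of arrays limits the precision.

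Genes were named from GEO's platform annotation, updated through a RefSeq table. The table held 35556 probe sets, of which 21789 had 1 symbol, 1621 had several, and the rest had none listed. The probe set with the highest mean stood for a gene. Genes above the 40th percentile of an array in at least 3 of 12 arrays were tested, 14195 in all. One mean per genotype was fitted with limma 3.58.1 in R 4.3.3 (lmFit and eBayes), with 8 residual and 2.9 prior degrees of freedom, over 7 contrasts. A gene was called at a two-sided Benjamini-Hochberg adjusted p under 0.05 over all tested genes. The fit was tested on simulated data. The alternatives were other filters, probe set rules, normalizations, variance settings, array weights, subsets of groups, the replicate number as a block, a threshold of 0.01, the median of 1190 receptor genes as a covariate, and arrays left out. The members and gene lists were chosen with earlier results of these data known. Named genes were all members, up to 4 called genes of each list with the lowest adjusted p, called genes that went against their list's majority, and the 5 genes most correlated with Ptch1. Shh, Emx1, En2, Hoxa2, Hoxb4, Pax2, Barhl1 and Xist are named outside this rule. Promoter windows came from RefSeq on GRCm38.p6 and were matched by symbol.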

Additional observations from a re-analysis of the deposited data

Results flagged for a closer look

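The Ptch1 interaction was flagged because the difference tied to SmoM2 changed with the beta-catenin allele by a direct test in the main fit. Ptch1 was 0.96 higher in GBS tumors than the sum of the single changes on the log2 scale (adjusted p = 0.0424 over all genes), with a difference of 2.38 between GBS and GB beside 1.43 between GS and Control. All 3 GBS arrays lay above all 3 GS arrays. The call held in 9 of 24 alternative settings. Its limits, sex among them, are given with the result. The Dixon test for single outlying samples was not applied, since the groups hold 3 arrays each.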

How the results depend on the processing

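Of the 70 member differences, 24 changed sign under at least 1 setting. None of these was called, and their reported values ran from -0.10 to 0.12. Of the 13 called differences, 6 kept the call under every setting: Ptch1 in GBS against Control, GS against Control, GBS against GS and GBS against GB, and Gli3 in GBS against Control and against GS. Members called in GBS against Control numbered 4, but 2 at an adjusted p under 0.01. They also numbered 2 at the 60th percentile filter, where Gli2 and Hhip were no longer tested and 13.7% of all genes were called higher. They numbered 7 with centred arrays, array weights, only the groups compared, the receptor covariate or without the 3 deviating arrays. The shares of all genes called higher were then 11.7%, 24.5%, 24.4%, 5.69% and 23.5%, against 11% in the main fit. Array weights and only the groups compared also called 25.9% and 21.8% of all genes lower, against 4.35%. With single arrays left out the members called numbered 2 to 7, with 7 without GB replicate 2 and 2 without GBS replicate 3 or either of Control replicates 1 and 2. Of all genes, 4.45% to 23% were then called higher, with 23% without GB replicate 2. In GS against Control the count of 1 became 3 with array weights (2 higher and 1 lower) and 2 without the 3 arrays. Array weights there called 3422 genes higher and 2939 lower, against 3 and 0 without them. Without the 3 arrays 9.86% of all genes were called higher. In GBS against GS the count of 3 became 5 (centred), 6 (array weights), 6 (covariate) and 5 (without the 3 arrays), and 2 to 5 with single arrays left out, where 5 was without GB replicate 2. Of all genes, 3.19%, 9.04%, 6.12% and 8.2% were then called higher, against 3.56%, and 1.74% to 7.75% with single arrays left out. In GBS against GB, 3 became 5, 5, 6 and 6 under the same settings and 1 with only the groups compared, and 2 to 5 with single arrays left out, where 5 was without GB replicate 2. The shares of all genes called higher were 9.3%, 16.6%, 3.86% and 17.1%, and 0.542% with only the groups compared, against 9.6%. With single arrays left out these shares ran from 2.79% to 15.5%. In GS against GB, 1 became 4 with array weights (2 higher and 2 lower) and 0 with only the groups compared. Array weights there called 6.35% of all genes higher and 3.06% lower, against 0.00704% each. For the interaction, 1 became 0 with quantile normalization, centring, trend and robust settings, the block or the stricter threshold, 5 with array weights, 4 with the covariate, 3 without the 3 arrays, and 0 to 1 with single arrays left out. Array weights, the covariate and leaving out the 3 arrays called 2.73%, 1.04% and 0.845% of all genes higher, against 0.324%. The causes were not tested. Cdon in GBS against Control turned from -0.04 to 0.02 (quantile) and 0.03 (centred), and ran from -0.18 to 0.05 with single arrays left out. Gas1 in that comparison was 0.07 (centred), 0.12 (covariate) and 0.03 (without the 3 arrays), and ran from -0.10 to 0.08. In GS against Control the covariate gave 0.05 for Gli1 and 0.00 for Gli2, and Gli3 ran from -0.14 to 0.02. Ptch1 in GB against Control ran from -0.08 to 0.08 and Hhip in GBS against GS from -0.07 to 0.10. The Hhip interaction was 0.02 (array weights), 0.01 (covariate) and 0.01 (without the 3 arrays), and ran from -0.14 to 0.04. Deviations of same-numbered replicates of different groups correlated over 0.1 in only 7 of 18 pairs (-0.818 to 0.739). The 3 arrays that deviate together weigh on these coefficients, so they do not decide whether the numbers pair the samples. With the replicate block, members called numbered 3 in GBS against Control, where Hhip was lost at an adjusted p of 0.0754, 2 in GBS against GS and in GBS against GB, where Gli2 was lost, and 0 in the interaction. Of all genes, the block called 7%, 2.14%, 4.61% and 0.113% higher in these 4 contrasts. Only 4 of 12 arrays correlated best with an array of their own number. Probe signal over background limits Hhip most.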

Other observations

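Of 10 tested WNT feedback genes 9 rose in GBS tumors against Control, where 11% of all genes were called higher and 4.35% lower, with a median change of 1.22. Their mean level was 7.99 to 8.29 in GBS, 6.74 to 6.90 in GS, 7.28 to 7.34 in GB and 6.87 to 7.06 in Control, so that GB lay above GS and Control, the reverse of the order of Ptch1 in GS and GB. Cortical interneuron genes had 3 of 7 lower in GBS against Control, among them Dlx5, a transcription factor of ventral forebrain neurons, and averaged 7.12 to 7.82 in GBS and 8.08 to 8.39 in Control. Olig1 and Olig2 were the 2 of 6 oligodendrocyte lineage genes called lower in the same comparison, beside 4.35% of all genes. At an unadjusted p under 0.05 (limma), 5 of these 6 were lower and 0 higher. Of all genes, 38.8% passed this in either direction.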
